A study of Homo sapiens with 6 samples.

Results

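A set of 10 genes of the apoptosis machinery was followed in these data: the BH3-only genes BBC3, PMAIP1, BCL2L11 and BIK, the effectors BAX and BAK1, the pro-survival genes BCL2L1 and MCL1, and the death receptors TNFRSF10A and TNFRSF10B. They were taken by symbol from the deposited tables, where all 10 were found among 26255 gene symbols. All 10 had a mean of at least 1 FPKM (fragments per kilobase of transcript, scaled to the mapped reads of the library) over the 6 libraries, so that all 10 are among the 12203 genes tested. The study asked what depletion of the long noncoding RNA LINC01534 changes in colorectal cancer cells. HCT116 is an established human colorectal cancer cell line of epithelial origin. There were 2 libraries of parent cells, 2 of cells given the small interfering RNA siLINC01534-1 and 2 of cells given siLINC01534-2, which is directed at another site of the same transcript.

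No transfection of the parent cells is described and no library of a control siRNA was analysed here, so an effect of transfection cannot be told apart from an effect of the siRNAs. The time between transfection and RNA extraction is not given for the sequenced cells. Nothing in the labels says whether the replicates came from separate cultures, and p-values here measure only the spread between these libraries. LINC01534 itself was listed at an FPKM of 0.285 and 0.571 in the libraries of parent cells, at 0 and 0.283 in those labelled siLINC01534-1, and at 0.660 and 0.551 in those labelled siLINC01534-2. As its mean was under 1 FPKM it was not tested, and the parent values lay apart from each other. The siLINC01534-2 values did not lie below both parent values, but values this low cannot show whether the transcript was depleted. The paper reports from quantitative PCR in HCT116 cells that both siRNAs reduced LINC01534. The groups here are named by their labels. The estimated depth was 8650000 to 9910000 reads in 5 libraries and about 10000000 in the second parent library, and the member with the fewest estimated reads, BIK, had at least 87 in each library. The epithelial genes EPCAM, KRT8, KRT18 and CDH1 were expressed in all 6 libraries, while the intestinal gene VIL1 stayed at or below 0.0453 FPKM. The leukocyte genes PTPRC and CD3E, the endothelial genes PECAM1 and VWF, and the fibroblast genes COL1A2, COL3A1 and PDGFRB were all under 0.2 FPKM in every library. Over both siRNAs KRT8 and KRT18 fell by 0.21 and 0.16 on the log2 scale (adjusted p = 0.0145 and 0.0112 in limma), CDH1 rose by 0.33 (adjusted p = 0.0137) and EPCAM did not pass (-0.01, adjusted p = 0.71). The summed FPKM of the 5 epithelial genes was 2904 to 2956 in parent, 2429 to 2438 with siLINC01534-1 and 2698 to 2864 with siLINC01534-2. COL1A1 rose from 3.02 and 3.05 FPKM in parent to between 3.79 and 5.79 in the siLINC01534 libraries. CD68 reached 6.10 and 6.18 FPKM with siLINC01534-2 against 2.88 and 3.92 in parent. The summed FPKM of the 4 fibroblast genes was 3.11 to 3.14 in parent, 5.36 to 6.08 with siLINC01534-1 and 3.85 to 4.33 with siLINC01534-2, and that of the 3 leukocyte genes was 2.91 to 3.94, 3.41 to 3.77 and 6.11 to 6.21 in the same order. The part of these marker differences in the values of the members was not tested.

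Apoptosis is started along a pair of routes. In the mitochondrial route, BH3-only proteins bind and neutralise the pro-survival proteins of the BCL2 family or engage the effectors BAX and BAK directly, and the effectors then open the outer mitochondrial membrane and release cytochrome c. In the extrinsic route, the ligand TRAIL binds the death receptors DR4 and DR5, encoded by TNFRSF10A and TNFRSF10B, which recruit FADD and caspase-8. Caspase-8 cleaves the BH3-only protein BID and thereby links both routes.

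Most of the pro-death genes were higher in the siLINC01534 libraries, while over both siRNAs BCL2L1 was lower and MCL1 did not pass the test. BBC3, PMAIP1 and TNFRSF10B rose by the most among the members, to 2.21, 1.87 and 1.82 times the parent level over both siRNAs. BIK, BCL2L11 and BAK1 rose to 1.33, 1.26 and 1.16 times, and BCL2L1 fell to 0.893 times. In the contrast of the mean of both siRNAs with parent, 6 of the 10 members were higher and 1 was lower at an adjusted p under 0.05 (limma with Benjamini-Hochberg adjustment), while of all genes tested 17.1% were higher and 20.1% were lower. BAX, MCL1 and TNFRSF10A did not pass that test. The members were chosen with earlier results of these data known, so their excess over all genes is not a test of the family. Of the 3 tested pro-death genes of the BCL2 family outside the set, 0 were higher and 1 was lower. The median log2 fold change was 0.25 over the members and -0.01 over all genes tested. All 4 siLINC01534 libraries lay above both parent libraries for 7 members, a pattern that 19.0% of all genes tested had, and below both for 1 member, against 19.3% of all genes. When the 4 siLINC01534 libraries were treated as 1 group, BBC3 and PMAIP1 alone remained past the threshold and TNFRSF10B had an adjusted p of 0.0526. The share of all genes past the threshold in that setting is not given here. In bulk libraries, a change in the level per cell and a change in the share of cells that express a gene cannot be told apart.

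**Figure D1:**
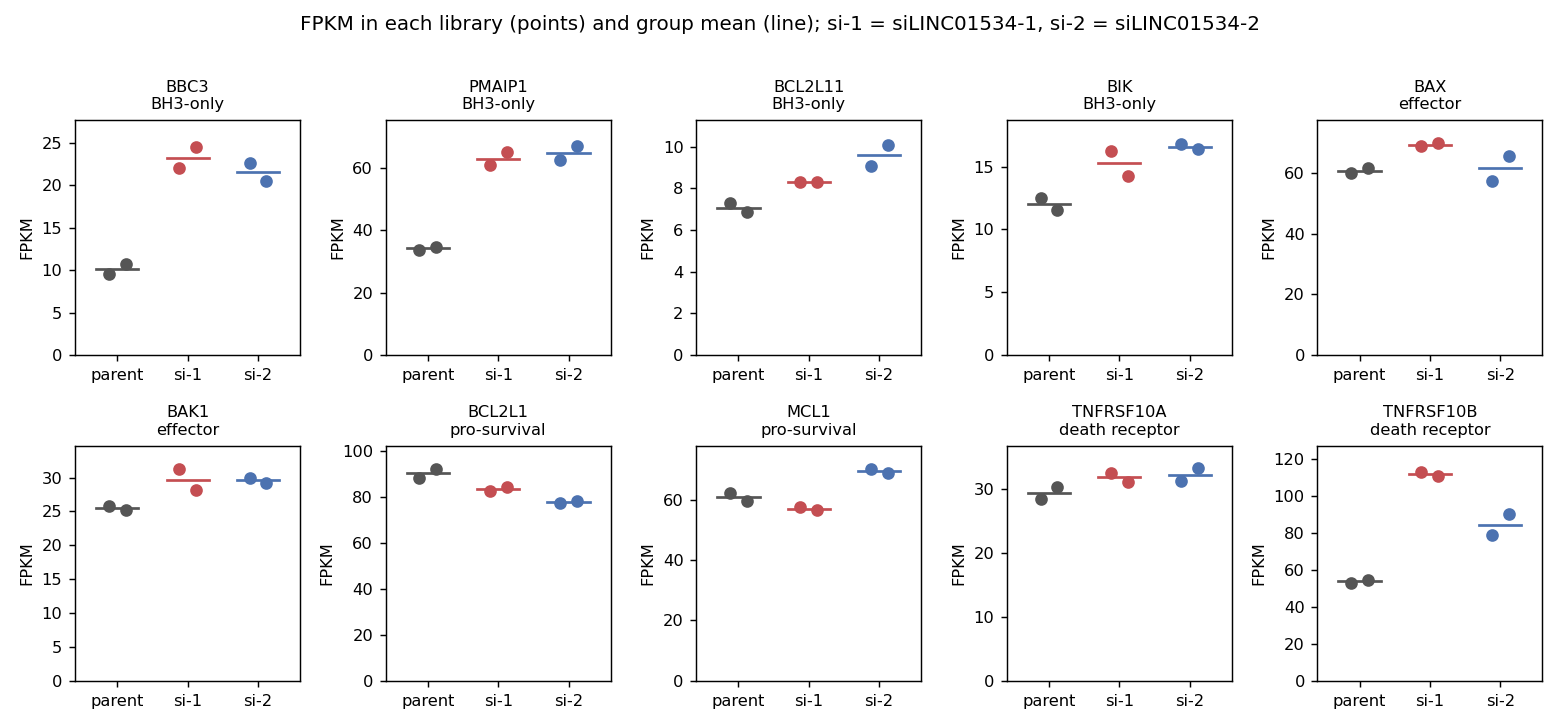
FPKM (vertical axes, from 0) of each of the 10 members in the 6 libraries (points) with the mean of each group (line). The siLINC01534 points of BBC3, PMAIP1 and TNFRSF10B stand well above the parent points, whereas those of MCL1 lie on either side of them.

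BBC3 encodes PUMA, a BH3-only protein that binds all the main pro-survival proteins. Its position is chromosome 19, 47724079 to 47736023, minus strand (GRCh37). Its FPKM was 9.55 and 10.7 in the parent libraries, 22.1 and 24.4 in the siLINC01534-1 libraries and 22.6 and 20.5 in the siLINC01534-2 libraries. The 4 libraries of treated cells all exceeded both parent libraries, and the libraries of the siRNAs overlapped. The log2 fold change on the scale of log2(FPKM + 1) was 1.07 ± 0.07 (SE), with an adjusted p of 5.7e-04 in limma. The siRNAs gave 1.12 and 1.02, and their difference had a 95% interval from -0.11 to 0.32. Only 154 of the 12203 genes, or 1.26%, had a larger log2 fold change. MIR3191, a microRNA gene on the opposite strand within BBC3, was listed at 0 in 5 libraries and at 6245 FPKM in the second siLINC01534-2 library. As FPKM is per length, a few reads can give a high value for a very short gene. BBC3 was at 20.5 FPKM in that library, the lowest of the 4 siLINC01534 libraries. The part of MIR3191 in the BBC3 values was not tested.

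PMAIP1 encodes NOXA, a BH3-only protein that binds mainly MCL1. Its position is chromosome 18, 57567228 to 57571537, plus strand (GRCh37). It had an FPKM of 33.7 and 34.6 in parent cells, then 60.7 and 65.0 after siLINC01534-1 and 62.5 and 66.8 after siLINC01534-2. The parent libraries were close to each other, the 4 siLINC01534 libraries were all above them, and the siRNAs overlapped. On the log2 scale the change was 0.88 ± 0.05 (SE), with an adjusted p of 2.9e-04 in limma. The siRNAs gave 0.86 and 0.90, and the 95% interval of their difference ran from -0.17 to 0.09. For both BBC3 and PMAIP1 the call held in each contrast with parent when any of the 6 libraries was left out.

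As PMAIP1 and BBC3 rose together, their promoters from the RefSeq table (GRCh38.p14) are shown on the strand of the gene, from 250 bases before the start of transcription. The PMAIP1 window is chr18:59899746-59900045 on the plus strand, and the BBC3 window is chr19:47232618-47232917 on the minus strand. Capitals mark CGTCA, the reverse complement of the cAMP response element core TGACG, in PMAIP1, and the E-box CACGTG in BBC3.
PMAIP1: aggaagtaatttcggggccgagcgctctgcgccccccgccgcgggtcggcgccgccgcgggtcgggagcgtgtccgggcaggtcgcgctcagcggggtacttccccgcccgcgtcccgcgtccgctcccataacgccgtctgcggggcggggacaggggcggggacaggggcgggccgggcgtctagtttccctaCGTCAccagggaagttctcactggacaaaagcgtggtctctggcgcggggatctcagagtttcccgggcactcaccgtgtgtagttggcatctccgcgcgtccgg
BBC3: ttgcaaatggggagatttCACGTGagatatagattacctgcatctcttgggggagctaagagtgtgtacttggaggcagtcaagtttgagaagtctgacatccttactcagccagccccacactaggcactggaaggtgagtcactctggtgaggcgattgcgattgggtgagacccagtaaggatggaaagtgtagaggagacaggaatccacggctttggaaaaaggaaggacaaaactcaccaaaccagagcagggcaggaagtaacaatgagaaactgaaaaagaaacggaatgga

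The core TGACG, a half-site of the ATF and CREB family, starts 55 bases before the PMAIP1 start site in this orientation, and the E-box, a site of basic helix-loop-helix factors, starts 232 bases before that of BBC3. The table holds 7 promoters for 6 of the members (BAK1, BAX, BBC3, BCL2L1, BCL2L11 and PMAIP1). On either strand, TGACG was found in 3 of the 7, in BAX, BCL2L1 and PMAIP1, and in 24.6% of all 35116 promoters. CACGTG was found in BAX and BBC3 and in 7.26% of all promoters. The C/EBP-ATF composite TGATGNAA was in 0 of the 7 and in 3.62% of all. A match shows only that these letters lie in the window, and a window without them says nothing about a factor.

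BIK encodes a BH3-only protein located mainly at the endoplasmic reticulum (chromosome 22, 43506756 to 43525718, plus strand, GRCh37). Its FPKM was 12.5 and 11.6 for the parent libraries, 16.3 and 14.2 for siLINC01534-1 and 16.8 and 16.4 for siLINC01534-2. All siLINC01534 libraries were above parent, and the first siLINC01534-1 library was close to those of siLINC01534-2. BIK rose by 0.38 ± 0.06 (SE) on the log2 scale, with an adjusted p of 0.0086 in limma, which became 0.073 without the second parent library.

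BCL2L11 encodes BIM, which binds all pro-survival proteins and can also engage BAX (chromosome 2, 111876955 to 111926021, plus strand, GRCh37). It was the lowest of the 10 members, at an FPKM of 7.30 and 6.85 in parent. siLINC01534-1 gave 8.31 and 8.32 and siLINC01534-2 gave 9.06 and 10.1. The 3 groups did not overlap. The change was 0.30 ± 0.06 (SE), with an adjusted p of 0.014 in limma. It was 0.21 with siLINC01534-1 (adjusted p = 0.057) and 0.39 with siLINC01534-2 (adjusted p = 0.017), and the difference between the siRNAs did not pass (adjusted p = 0.086). The call for the mean of both siRNAs was lost without either parent library or either siLINC01534-1 library, at adjusted p from 0.0503 to 0.102. On the opposite strand, MIR4435-2HG overlaps BCL2L11 and had 18.0 and 24.7 FPKM in the parent libraries, 40.7 and 41.1 in the siLINC01534-1 libraries and 17.4 and 20.4 in the siLINC01534-2 libraries. Whether the counting used the strand is not given in the sources used here, and its part in the BCL2L11 values was not tested.

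The effectors moved less. BAK1 (chromosome 6, 33540324 to 33548070, minus strand, GRCh37) had an FPKM of 25.8 and 25.2 in parent cells, then 31.3 and 28.1 after siLINC01534-1 and 29.9 and 29.3 after siLINC01534-2. The 4 libraries of treated cells exceeded both parent libraries, by a narrow margin. The log2 fold change was 0.21 ± 0.05 (SE), with an adjusted p of 0.027 in limma. That p rose to between 0.064 and 0.14 without either parent library or either siLINC01534-2 library. BAX (chromosome 19, 49458072 to 49465055, plus strand, GRCh37) had an FPKM of 59.9 and 61.4 for the parent libraries, 68.8 and 69.8 for siLINC01534-1 and 57.4 and 65.6 for siLINC01534-2. One siLINC01534-2 library was below parent and the other above it, and the log2 fold change of 0.10 ± 0.06 (SE) did not pass the limma test (adjusted p = 0.21). Without the first siLINC01534-2 library, the lowest of all, it was 0.15 with an adjusted p of 0.033. BAX had the higher parent level of the 2 effectors by far, and neither differed between the siRNAs past the threshold.

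BCL2L1, whose main product BCL-xL holds BAX, BAK and several BH3-only proteins, was the most highly expressed of the 10 members in parent cells (chromosome 20, 30252255 to 30311792, minus strand, GRCh37). Its FPKM was 88.3 and 92.3 in the parent libraries, 82.6 and 84.3 in the siLINC01534-1 libraries and 77.5 and 78.4 in the siLINC01534-2 libraries. The 3 groups did not overlap, with parent highest and siLINC01534-2 lowest. The log2 fold change was -0.16 ± 0.03 (SE), with an adjusted p of 0.014 in limma, and 0.076 without the second parent library. With siLINC01534-1 it was -0.11 (adjusted p = 0.052) and with siLINC01534-2 -0.21 (adjusted p = 0.016). The lncRNA ABALON, which overlaps BCL2L1 on the opposite strand, had 50.0 and 53.2 FPKM in parent and from 43.1 to 47.7 in the siLINC01534 libraries, and the reads of the pair cannot be told apart if strand was not used.

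MCL1 encodes a short-lived pro-survival protein and the main partner of NOXA (chromosome 1, 150533371 to 150552214, minus strand, GRCh37). It was the member whose libraries lay on opposite sides of parent with the different siRNAs. Its FPKM was 62.0 and 59.6 in parent cells, then 57.5 and 56.6 after siLINC01534-1 and 70.1 and 68.7 after siLINC01534-2. The groups did not overlap, with siLINC01534-1 below and siLINC01534-2 above parent. Against parent, the log2 fold change was -0.09 with siLINC01534-1 (adjusted p = 0.096 in limma) and 0.19 with siLINC01534-2 (adjusted p = 0.021), the latter lost without any of the parent or siLINC01534-2 libraries at adjusted p from 0.058 to 0.092. The difference between the siRNAs was -0.28 with a 95% interval from -0.37 to -0.19 (adjusted p = 0.0032), and it held without each library. The mean of both was 0.05 (adjusted p = 0.28). The deposited values are per gene, so the long and short splice forms of MCL1, BCL2L1 and BCL2L11, some of which act in opposite ways, cannot be told apart.

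The bases in a transcript that pair with bases 2 to 8 of the antisense strand of each siRNA, the seed, were searched in the longest annotated 3′ UTR of each gene. For siLINC01534-1 the letters are GAATAAA, which include the polyadenylation signal AATAAA, and for siLINC01534-2 they are TTCGAGT. Of the 10 members, MCL1 alone held GAATAAA, at 1 place, and 0 held TTCGAGT, while among the 10585 genes tested that have an annotated 3′ UTR, 26.8% and 1.91% held them. The place in MCL1 is shown because MCL1 is the member whose direction differed between the siRNAs, and lies at chr1:150549684-150549710 on the minus strand (GRCh37), in exon 3 of 3, 154 bases into a 3′ UTR of 2820 bases. The matching letters are in capitals, with 10 bases on each side.
MCL1: tggctaacaaGAATAAAtacatgggaa

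The part of this match in the MCL1 values was not tested. In the siLINC01534-1 libraries the median log2 fold change against parent was -0.14 over all tested genes with GAATAAA and 0.03 over those without it. In the siLINC01534-2 libraries it was 0.01 over the 202 genes with TTCGAGT and 0.005 over those without it. Genes with and without the letters were not matched for the length of the 3′ UTR. Neither set of letters was compared in the libraries of the other siRNA.

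The death receptors differed from each other. TNFRSF10B, encoding DR5, is a TRAIL receptor with an intracellular death domain. Its FPKM was 52.8 and 54.8 for the parent libraries, 113 and 111 for siLINC01534-1 and 79.0 and 90.1 for siLINC01534-2. The 3 groups did not overlap, with siLINC01534-1 highest, siLINC01534-2 between and parent lowest. On the log2 scale it rose by 0.84 ± 0.06 (SE), with an adjusted p of 5.6e-04 in limma, and it was larger in 1.77% of all genes tested. siLINC01534-1 gave 1.04 and siLINC01534-2 gave 0.64, and the difference of 0.40 (95% interval 0.24 to 0.57) passed the test between the siRNAs (adjusted p = 0.0064) and held without each library. TNFRSF10A, encoding DR4, a related TRAIL receptor with a death domain, had an FPKM of 28.4 and 30.3 in the parent libraries, 32.5 and 31.2 in the siLINC01534-1 libraries and 31.3 and 33.2 in the siLINC01534-2 libraries. Each siLINC01534 library exceeded both parent libraries, but by less than 1 FPKM for the nearest pair of libraries, and the log2 fold change of 0.12 ± 0.05 (SE) did not pass (adjusted p = 0.089). Within a library, TNFRSF10B was 1.81 and 1.86 times TNFRSF10A in parent, 3.46 and 3.56 times with siLINC01534-1, and 2.53 and 2.71 times with siLINC01534-2. Both genes lie on the minus strand of chromosome 8 (GRCh37), TNFRSF10A from 23047965 to 23082615 and TNFRSF10B from 22877646 to 22926544. How reads that match more than 1 of these related genes were divided is not given in the sources used here.

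**Figure D2:**
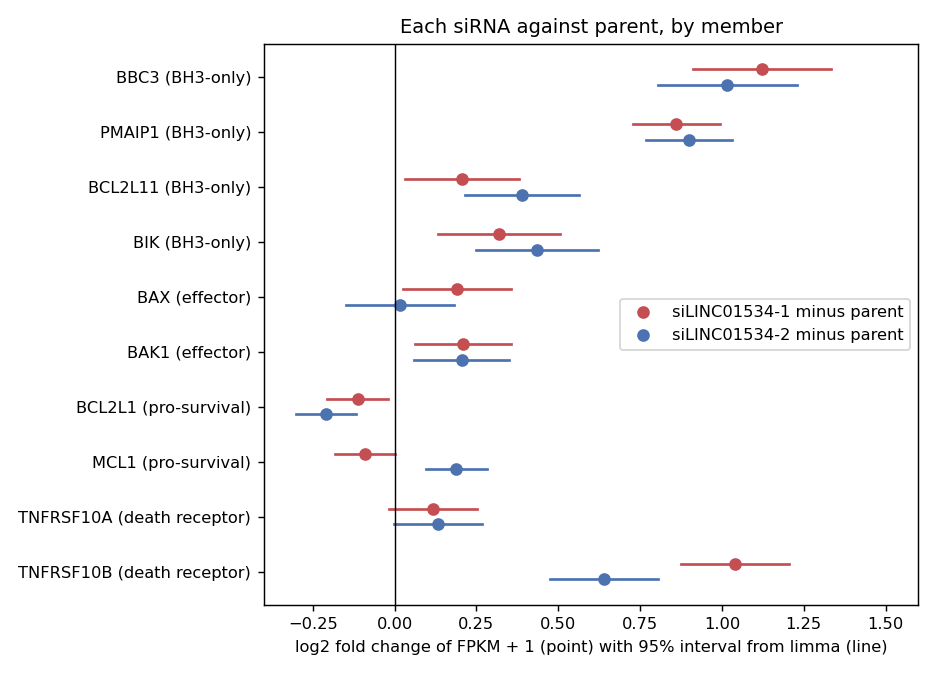
Log2 fold change of FPKM + 1 against parent (horizontal axis) for each member with siLINC01534-1 and siLINC01534-2 (points), with the 95% interval from limma (lines). The intervals of the siRNAs lie apart for MCL1, at -0.09 and 0.19, and for TNFRSF10B, at 1.04 and 0.64.

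Analysed alone, siLINC01534-1 gave 5 members higher (BBC3, PMAIP1, BIK, BAK1 and TNFRSF10B) and 0 lower in limma, where 21.8% of all genes tested were higher and 24.5% lower. At an unadjusted p under 0.05 these counts were 7 and 1, where 26.0% of all genes were higher and 28.3% lower. siLINC01534-2 gave 6 higher (BBC3, PMAIP1, BCL2L11, BIK, MCL1 and TNFRSF10B) and 1 lower (BCL2L1), where 11.1% of all genes were higher and 11.8% lower. Between the siRNAs, TNFRSF10B was higher and MCL1 lower with siLINC01534-1, 1 member each, against 19.5% and 22.3% of all genes tested. The contrasts with parent share the parent libraries. The calls for BBC3, PMAIP1 and TNFRSF10B with each siRNA held without each library, whereas those for BIK with either siRNA, BAK1 with siLINC01534-1, and BCL2L11, BCL2L1 and MCL1 with siLINC01534-2 were each lost without some of the parent or treated libraries. The highest adjusted p among these was 0.14, for BAK1 without the second parent library.

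In parent cells, the order of the members by FPKM, which is per length and so allows genes to be compared, was BCL2L1, MCL1, BAX, TNFRSF10B, PMAIP1, TNFRSF10A, BAK1, BIK, BBC3 and BCL2L11. Neighbours in this order did not overlap between the parent libraries except MCL1 and BAX. When the levels were summed by role, the 4 BH3-only genes had 63.0 and 63.8 FPKM in parent cells, then 107 and 112 after siLINC01534-1 and 111 and 114 after siLINC01534-2. The effectors summed to 85.7 and 86.7, then 100.1 and 97.9, then 87.3 and 94.9 in the same order of libraries. The pro-survival genes summed to 150.3 and 152 for the parent libraries, 140.0 and 141 for siLINC01534-1 and 148 and 147 for siLINC01534-2. The BH3-only sums were thus above both parent sums in all 4 siLINC01534 libraries, and the pro-survival sums were below both. With siLINC01534-2 the mean pro-survival sum was 147.4 against 151.1 in parent. There BCL2L1 fell from a mean of 90.33 to 77.95 FPKM while MCL1 rose from 60.8 to 69.4, so the pro-survival genes did not fall together. PMAIP1 had 34.2 of the mean BH3-only sum of 63.4 in parent.

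The ratio of the pro-death BCL2 family genes (BH3-only and effectors) to the pro-survival genes within a library was 0.989 and 0.991 in the parent libraries, 1.48 and 1.49 in the siLINC01534-1 libraries and 1.34 and 1.42 in the siLINC01534-2 libraries. The ratio was near 1 in both parent libraries and higher in all 4 others. It holds the members alone. Other expressed genes of the family, among them BID and BCL2L2, are not in it, and its level and its change depend on that choice. PMAIP1 per MCL1, a BH3-only gene set against its main partner, was 0.544 and 0.581 in parent cells, then 1.06 and 1.15 after siLINC01534-1 and 0.892 and 0.972 after siLINC01534-2. BAX per BCL2L1 was 0.678 and 0.666 in parent and from 0.742 to 0.836 in the siLINC01534 libraries. These sums and ratios are descriptions of RNA levels and were given no test.

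**Figure D3:**
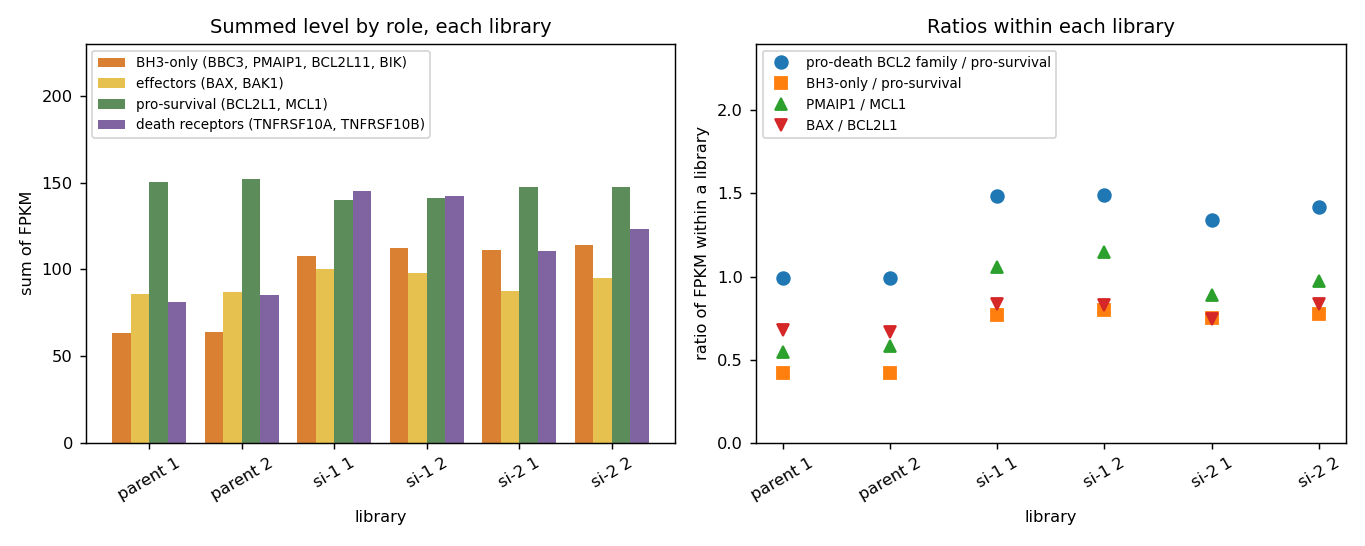
Left, FPKM summed by role in each library (bars, from 0). Right, ratios of FPKM within each library (points). The BH3-only sum is 63.0 and 63.8 in parent and 107 to 114 in the siLINC01534 libraries. The ratio of pro-death BCL2 family members to pro-survival members goes from about 1 to between 1.34 and 1.49.

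Few of the other BCL2 family genes were expressed enough to be tested. Of 5 further pro-death genes, 3 had enough expression to be tested and 0 were higher. BID, the link between both routes, was lower, at 30.03 and 28.9 FPKM for the parent libraries, 21.1 and 23.4 for siLINC01534-1 and 25.7 and 24.5 for siLINC01534-2. All 4 siLINC01534 libraries were below parent, and the log2 fold change was -0.31 ± 0.05 (SE), with an adjusted p of 0.0093 in limma. Of 4 further pro-survival genes, BCL2L2 alone was tested, with a log2 fold change of 0.01 (adjusted p = 0.86). BCL2 itself was below the filter, at an FPKM of 1.03 and 1.02 in the parent libraries, 0.250 and 0.491 in the siLINC01534-1 libraries and 0.682 and 0.663 in the siLINC01534-2 libraries.

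In the TRAIL and death complex list, 10 of 12 genes were tested, 5 were higher and 0 were lower, with a median log2 fold change of 0.23. Over all genes tested 17.1% were higher and 20.1% lower, with a median of -0.01. TNFSF10, which encodes TRAIL itself, was listed at 0.0618 FPKM in 1 parent library and at 0 in the other 5 libraries. TNFRSF10D, a decoy receptor that binds TRAIL and lacks a complete death domain, had 23.5 and 23.1 FPKM in parent cells, then 43.9 and 41.7 after siLINC01534-1 and 26.1 and 29.3 after siLINC01534-2. It thus rose mainly with siLINC01534-1, and the difference between the siRNAs was 0.61 on the log2 scale (adjusted p = 0.0015). TNFRSF10B per TNFRSF10D was 2.25 and 2.38 for the parent libraries, 2.57 and 2.66 for siLINC01534-1 and 3.03 and 3.07 for siLINC01534-2. FAS, the receptor of FAS ligand, had 8.67 and 8.89 FPKM in the parent libraries, 16.6 and 15.1 in the siLINC01534-1 libraries and 12.5 and 12.4 in the siLINC01534-2 libraries, an order of groups like that of TNFRSF10B. Its log2 fold change was 0.62 ± 0.05 (SE), with an adjusted p of 9.0e-04 in limma.

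The other 3 genes that rose in that list were CASP10, an initiator caspase (0.39, adjusted p = 0.019), TNFRSF1A, a receptor of tumour necrosis factor (0.37, adjusted p = 0.0058), and FADD, the adaptor of the death receptors (0.21, adjusted p = 0.032). FADD was named after its values were seen. CASP8, the main initiator caspase below the TRAIL receptors, had from 12.7 to 13.8 FPKM in parent and from 13.5 to 16.4 in the siLINC01534 libraries, and did not pass (0.19, adjusted p = 0.067). CFLAR, whose product FLIP inhibits caspase-8, had 14.4 and 11.6 FPKM in parent cells, then 16.5 and 18.6 after siLINC01534-1 and 14.3 and 12.9 after siLINC01534-2. Its level was above parent in both siLINC01534-1 libraries and within the parent range in those of siLINC01534-2, with a log2 fold change of 0.41 (adjusted p = 0.034) for siLINC01534-1 and of 0.24 (adjusted p = 0.12) for the mean of both.

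Below the mitochondria, among 10 tested genes of the apoptosome, the caspases and their inhibitors, 2 were higher and 1 lower, with a median of 0.04, and these shares are near the 17.1% and 20.1% of all genes. BIRC3, encoding the inhibitor of apoptosis cIAP2, had the largest change of these, from 0.619 and 0.789 FPKM in parent to 3.57 and 3.73 with siLINC01534-1 and 3.67 and 4.19 with siLINC01534-2. The ratio of means was 5.39, and the log2 fold change of FPKM + 1, which understates that of a low gene, was 1.49 ± 0.09 (SE), with an adjusted p of 4.2e-04 in limma. BIRC2, its neighbour encoding cIAP1, rose by 0.60 on the log2 scale (adjusted p = 0.0036). CYCS, encoding cytochrome c, fell by 0.17 on the log2 scale (adjusted p = 0.011).

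XIAP, an inhibitor of caspases, was chosen after its values were seen. It had 6.44 and 6.14 FPKM in the parent libraries, 3.39 and 3.41 in the siLINC01534-1 libraries and 7.61 and 9.02 in the siLINC01534-2 libraries. The siLINC01534-1 libraries were below parent and the siLINC01534-2 libraries above it, with log2 fold changes of -0.73 (adjusted p = 0.0020 in limma) and 0.35 (adjusted p = 0.043). The difference between the siRNAs was -1.08 (adjusted p = 7.1e-04). The 3′ UTR of XIAP held the letters GAATAAA at 3 places. Of the 44 genes of the lists reported here that have a 3′ UTR, 8 held these letters. The log2 fold change with siLINC01534-1 was below 0 for 2 of them, MCL1 and XIAP, and above 0 for the other 6, and the lists are not reported in full. The part of the letters in these values was not tested.

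Among genes that control MCL1 stability, 1 of 4 tested was higher: FBXW7, a ubiquitin ligase subunit that targets MCL1, at 8.83 and 10.1 FPKM in parent cells, then 12.6 and 14.2 after siLINC01534-1 and 10.8 and 12.1 after siLINC01534-2 (log2 fold change 0.36, adjusted p = 0.022), where 17.1% of all genes were higher. Among 6 known upstream regulators of the members, 3 were higher and 1 lower, beside the same 17.1% and 20.1%. DDIT3, which encodes the stress-induced factor CHOP and is known to act on TNFRSF10B and BCL2L11, was at 17.5 and 19.5 FPKM for the parent libraries, 76.7 and 73.5 for siLINC01534-1 and 78.5 and 90.2 for siLINC01534-2. It was higher in all 4 siLINC01534 libraries, with a log2 fold change of 2.05 ± 0.07 (SE) and an adjusted p of 1.1e-04 in limma. ATF4, the factor upstream of CHOP, was at 350 FPKM in both parent libraries, 567 and 574 with siLINC01534-1, and 386 and 378 with siLINC01534-2, and differed between the siRNAs by 0.58 on the log2 scale (adjusted p = 2.1e-04).

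MDM2, a ubiquitin ligase, was at 47.0 and 43.3 FPKM in parent and from 56.2 to 64.9 in the siLINC01534 libraries (log2 fold change 0.43, adjusted p = 0.0017). TP73, a transcription factor, was lower (-0.33, adjusted p = 0.014), at 5.93 and 5.52 FPKM in parent cells, then 3.60 and 3.71 after siLINC01534-1 and 5.41 and 4.94 after siLINC01534-2.

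**Figure D4:**
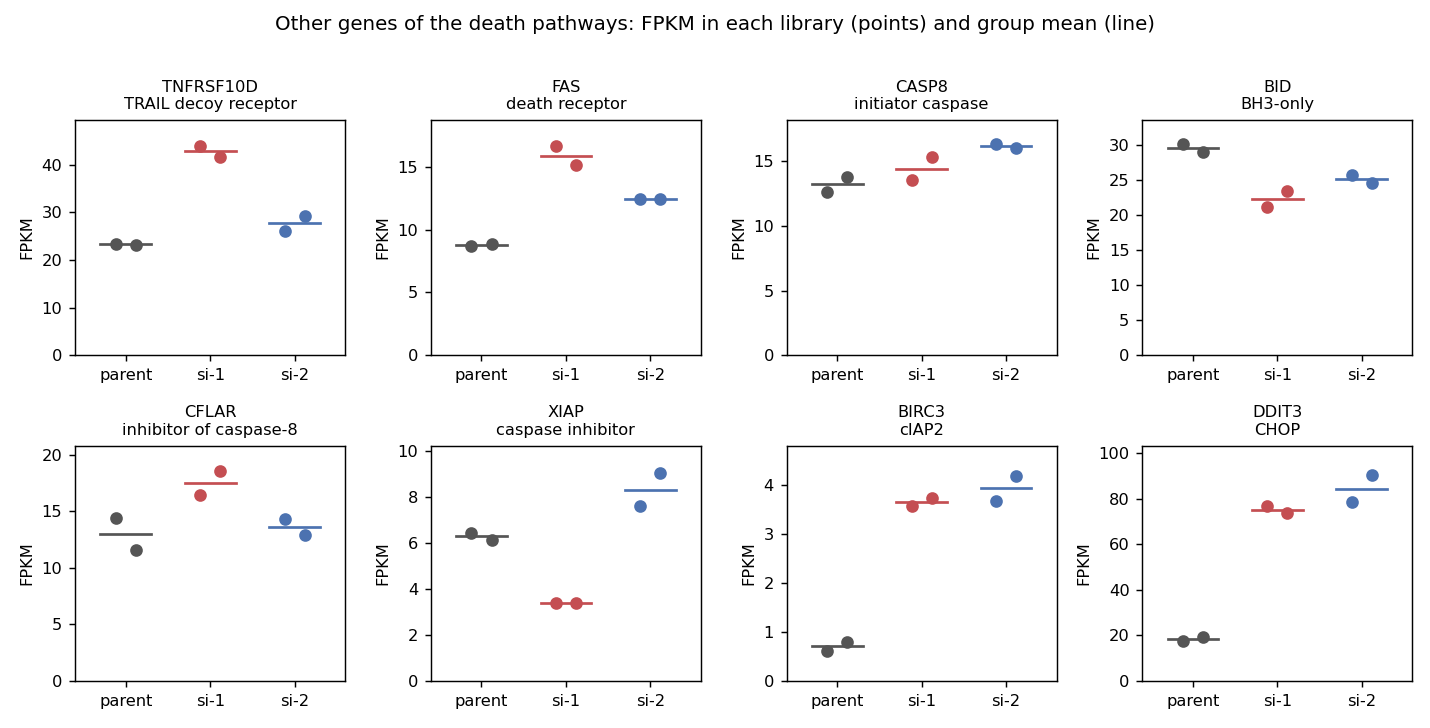
FPKM (vertical axes, from 0) of 8 further genes of the death pathways in the 6 libraries (points) with group means (lines). XIAP is at 3.39 and 3.41 with siLINC01534-1 and at 6.14 or above elsewhere, whereas DDIT3 and BIRC3 are high with both siRNAs.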

How the data were processed

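RNA-seq was performed on 6 libraries of HCT116 cells, 2 per group, with groups and replicate numbers taken from the labels. Per the labels and the study's methods, the authors prepared stranded poly(A) libraries, mapped the reads to hg19 with TopHat2 2.0.13 and Bowtie2 2.2.3, used SAMtools 0.1.19, and deposited gene FPKM computed by Cufflinks 2.2.1. FPKM are normalised for transcript length and library size and hold no counts. The annotation behind the symbols and the strand setting are not given in the sources used here. The methods give a number of cultures that differs from the 2 libraries per group in the labels. The labels do not give a number of cultures.

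The deposited FPKM were transformed to log2(FPKM + 1), and genes averaging at least 1 FPKM were tested with limma 3.58.1 in R 4.3.3 (lmFit, contrasts.fit, eBayes with trend) over all 12203 genes, 1 mean per group, two-sided, with Benjamini-Hochberg adjustment over all genes and a threshold of 0.05. Fold values are ratios of mean FPKM. The fit was checked on simulated data with independent normal noise. The changes put in were larger than those of BIK, BCL2L11, BAK1 and BCL2L1, so the check does not cover changes of that size. Depth was estimated from low values of genes with 1 transcript, 200 nt taken off their length. Promoters came from RefSeq and 3′ UTRs from GENCODE on GRCh37 (Python 3.11.15, pandas 2.3.3, numpy 2.4.6). The annotation of GRCh37 gave gene positions.

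The members and gene lists were chosen with earlier results of these data known. Named are all members, of each other list up to 4 genes past the threshold with the largest change for the mean of both siRNAs, and TNFSF10, BCL2, BID, CASP8, CFLAR and DDIT3. Some genes of the lists are not reported here. FADD, XIAP, BCL2L2, HRK and BMF and the overlapping genes were picked once the values had been seen. Alternatives were another pseudocount, no filter, rescaled libraries, no trend, a replicate block, siLINC01534 libraries as 1 group, omission of short RNA genes, and omission of each library. No library was left out of the main analysis.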

Additional observations from a re-analysis of the deposited data

Results flagged for a closer look

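The following genes differed between the siRNAs by the limma test of the difference itself, and the value is the log2 fold change of siLINC01534-1 against siLINC01534-2 on the FPKM + 1 scale. Among the members, MCL1 had -0.28 (-0.09 and 0.19 against parent for siLINC01534-1 and siLINC01534-2) and TNFRSF10B had 0.40 (1.04 and 0.64). Among receptors, FAS had 0.33 (0.79 and 0.46) and TNFRSF10D had 0.61 (0.85 and 0.24). XIAP had -1.08 (-0.73 and 0.35). Among regulators, ATF4 had 0.58 (0.70 and 0.13), TP73 had -0.41 (-0.53 and -0.12) and MDM2 had 0.17 (0.51 and 0.34). Adjusted p-values ranged from 2.1e-04 for ATF4 to 0.042 for MDM2.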

How the results depend on the processing

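With the siLINC01534 libraries as 1 group, 2 members were higher and 0 lower for the mean of both siRNAs. That alternative counts differences between the siRNAs as spread. For the alternatives in this section the share of all genes called is not given here. A fall in the number of members called therefore cannot be told from a general loss of calls. Without 227 short RNA genes, 6 members were higher (BAX added) and 1 lower (BCL2L1) with siLINC01534-1, and 7 were higher with siLINC01534-2 (BAK1 added). In that setting 2 were higher with siLINC01534-1 than with siLINC01534-2 (BAX added). When each library was left out in turn, the members higher for the mean of both siRNAs numbered 3 to 6 and those lower 0 to 1. With siLINC01534-1 they numbered 3 to 5 higher, with siLINC01534-2 3 to 7 higher and 0 to 1 lower, and 1 to 2 were higher in siLINC01534-1 than in siLINC01534-2. The lowest counts of members higher than parent came without the second parent library. For siLINC01534-1 that count was as low without the first siLINC01534-1 library. For siLINC01534-2 it was as low without the first parent library or the second siLINC01534-2 library. The lowest counts of members lower came without the second parent library, and for siLINC01534-2 also without either siLINC01534-2 library. Signs turned only in values that passed no threshold: BAX with siLINC01534-2 was -0.0014 without the first parent library and -0.0774 without the second siLINC01534-2 library, and the difference between siRNAs ranged from -0.0879 to 0.0094 for PMAIP1, from -0.0708 to 0.0778 for BAK1, and from -0.0591 to 0.0252 for TNFRSF10A. Deviations of same-numbered libraries correlated at 0.11, 0.03 and -0.05. These correlations are weak but do not settle whether the numbers pair the libraries, and the labels do not say. A fit with the replicate number as a block gave 6 higher and 1 lower and changed no member's call. Rescaled libraries left all 40 member values on their side of the threshold, and another pseudocount, no filter and no trend left 39 each. The rescaling factors ran only from 1.003 to 1.008, so rescaling could hardly have moved a call. BBC3 and PMAIP1 passed the threshold over both siRNAs in 13 of 13 alternatives. As the files hold no read counts, counting error is known only through the estimated depth, and each left-out library leaves its group with 1 library, assumed to vary like the others.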

Other observations

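BH3-only genes below the filter on low values were HRK, at 0.918 and 0.942 FPKM in the parent libraries, 0.349 and 0.533 in the siLINC01534-1 libraries and 0.976 and 1.11 in the siLINC01534-2 libraries, and BMF, at 0.0709 and 0.0948 in parent and from 0.113 to 0.331 in the siLINC01534 libraries. Both were named after their values were seen and were not tested. RHOBTB2, which overlaps TNFRSF10B on the opposite strand, stayed between 4.86 and 6.16 FPKM in all 6 libraries. ADAMTSL4, which overlaps MCL1 on the opposite strand, was at or below 0.471 FPKM.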
